A study of Mus musculus with 12 samples.

Results

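The 9 genes described here encode transcription factors of the AP-1 group and 2 relatives: the Fos family (Fos, Fosb, Fosl1, Fosl2), the Jun family (Jun, Junb, Jund), Atf3 and Maff. They were chosen by name, through the RefSeq accession of their probes, out of 17002 named genes with a usable probe. Each had 1 probe on the array, and all 9 probes passed the filter on dim probes, which asks for a signal well above background on at least 3 of the 12 arrays. Fosl1 passed it through the 3 arrays at 12 h, where it was highest, and 1 at 24 h, and Jund was well above background on 11 arrays and the other members on 12. The samples are whole livers of male wild-type C57BL/6 mice, 6 weeks old, taken at 0, 1.5, 12 and 24 h after 2/3 partial hepatectomy, the surgical removal of most of the liver, with 3 mice per time point. Each array was taken to be a different mouse, which the labels do not state. Sham-operated mice were not analysed here, so loss of liver mass and the operation itself cannot be told apart, and the time of day of sampling is not given in the sources used here.

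AP-1 is a dimer of basic leucine zipper proteins. Jun proteins pair with one another or with Fos proteins, whereas Fos proteins need a Jun partner, and the dimers bind the letters TGACTCA or related sites in the promoters and enhancers of their targets. Most of these genes belong to the immediate early class, which is transcribed within minutes of a growth factor, cytokine or stress signal into messenger RNAs that are soon degraded. ATF3 is a stress-induced relative that binds the cyclic AMP response element (CRE), alone or with Jun proteins. MAFF is a small Maf protein that lacks an activation domain and acts through its partners. In the liver, Jun is known from mouse genetics to be needed for hepatocytes to enter the cell cycle after partial hepatectomy.

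The promoters of 5 members are shown because the RNAs of these genes were measured together here and their promoters differ in binding letters. The stretches are the 120 bases before the annotated start, from RefSeq on build GRCm38.p6. Capitals mark letters that match the palindromic CRE (TGACGTCA), its shorter core (TGACGT or ACGTCA) or the site best known from the Jun promoter (TGACATCA). They lie at chr1:191183334-191183453 (minus strand, Atf3), chr4:95052223-95052342 (minus strand, Jun), chr12:85473770-85473889 (plus strand, Fos), chr15:79347400-79347519 (plus strand, the second of 3 annotated Maff starts) and chr8:84978749-84978868 (minus strand, Junb).
Atf3: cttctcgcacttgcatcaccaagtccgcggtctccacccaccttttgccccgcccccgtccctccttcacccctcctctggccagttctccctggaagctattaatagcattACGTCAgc
Jun: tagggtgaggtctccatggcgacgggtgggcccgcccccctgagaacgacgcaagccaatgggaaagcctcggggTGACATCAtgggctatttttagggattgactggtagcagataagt
Fos: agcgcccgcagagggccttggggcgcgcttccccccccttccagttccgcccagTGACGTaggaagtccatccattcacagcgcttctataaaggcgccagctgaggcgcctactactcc
Maff: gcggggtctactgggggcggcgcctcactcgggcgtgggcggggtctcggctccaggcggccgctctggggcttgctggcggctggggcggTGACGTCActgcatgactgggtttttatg
Junb: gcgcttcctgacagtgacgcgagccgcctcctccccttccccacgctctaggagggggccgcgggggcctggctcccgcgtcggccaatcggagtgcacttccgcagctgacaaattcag

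Counted from the start, the CRE core lies at bases -8 to -3 of Atf3 and -66 to -61 of Fos, and the Jun-type site at -45 to -38 of Jun. In Maff, the whole CRE at -29 to -22 also contains the core on both strands, and another start of the gene has TGACATCA at -45 to -38. The Junb stretch holds none of these letters. The search covered windows of 300 bases, 250 before to 50 after the start, on both strands, and 8 of the 9 members had 10 such windows. Fosl1 was not searched. Among 32851 windows of all genes, TGACGT or ACGTCA occurred in 7.51%, TGACATCA or TGATGTCA in 3.62% and TGACGTCA in 1.79%. Of the 10 member windows, 3, 2 and 1 held these letters, in the same order, all in Atf3, Fos, Jun or Maff. The windows of Fosb, Fosl2, Jund and Junb held none of them. The AP-1 site TGACTCA or TGAGTCA, found in 5.20% of all windows, and the serum response element's CArG box, found in 1.63%, had no match in the 10 member windows. Sites more than 250 bases before a start were not searched. A match is a run of letters and not a measured binding site.

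Signals are given as log2 of the scanner's processed intensity relative to the 75th percentile of the same array, so 0 is that percentile. One probe's level is not comparable with another's. On 11 arrays the 75th percentile lay between 444 and 601 intensity units, and on the 24 h replicate 2 array it was 6567. That array was read in a scan of its own and correlated at 0.906 and 0.912 with the other 24 h arrays, against 0.986 between those 2, across probes that are not independent. Since one linear model with a shared spread was fitted to all arrays, it enters every comparison, and results are given with it (12 arrays) and without it (11 arrays). Hepatocyte markers identified the tissue as liver, with 11 or 12 of 12 well above background on every array. Over all 31168 probes, the log2 change against 0 h had a median of 0.16 for the 1.5 h arrays, 0.41 for the 12 h arrays and -0.18 for the 24 h arrays (0.13 without replicate 2), and quantile normalization moved these medians to 0.02, 0.14 and -0.05. The 3 comparisons with 0 h share the same 0 h arrays.

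**Figure D1:**
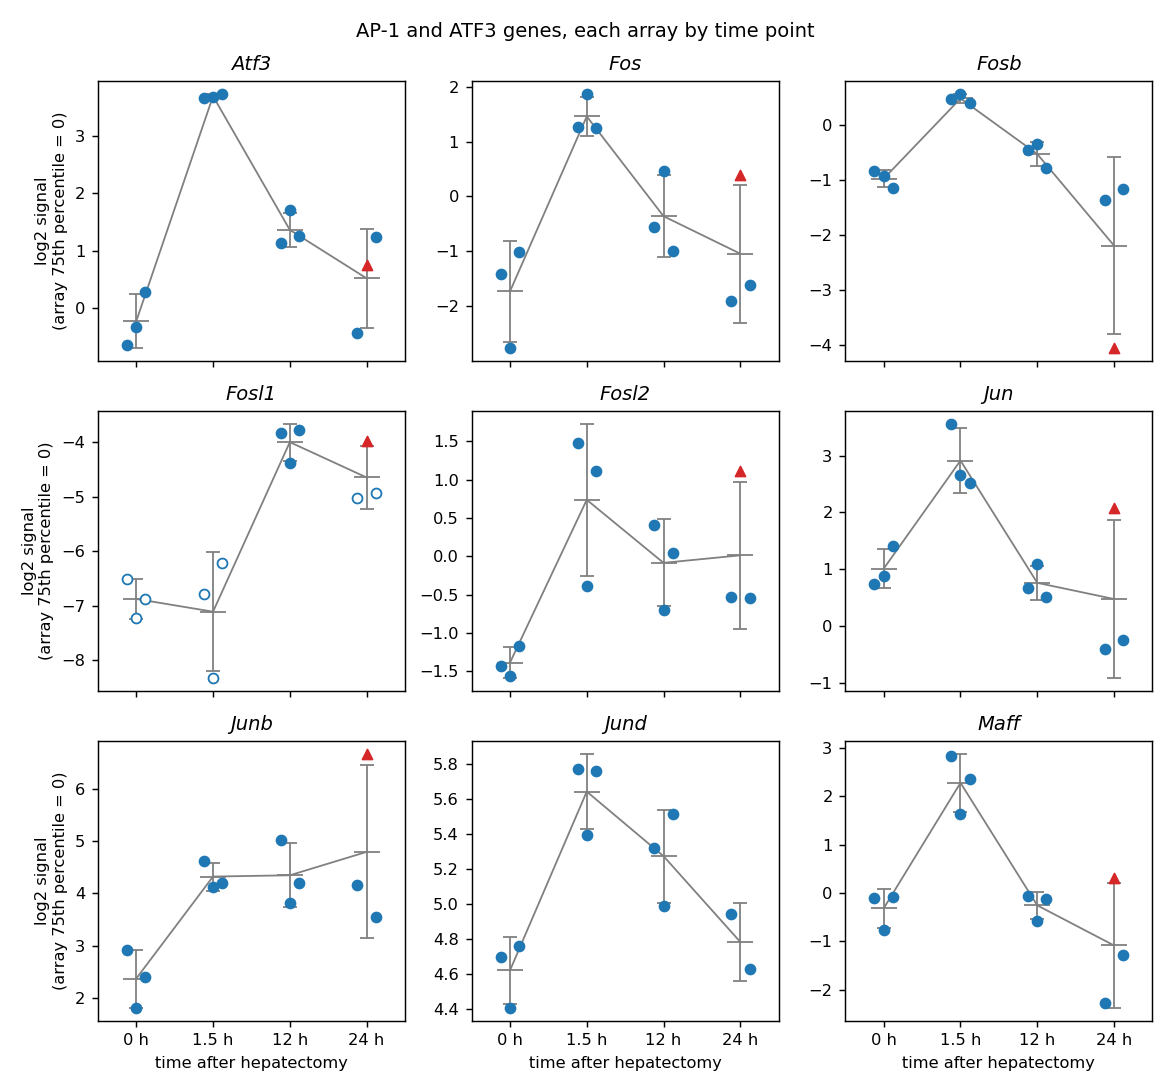
Log2 signal of each gene on each array (y axis, array 75th percentile = 0, scale differing between panels) by time after hepatectomy (x axis). Circles are arrays, red triangles the 24 h replicate 2 array, open symbols signals not well above background, and grey marks the mean ± SD of the arrays measured (2 for Jund at 24 h, otherwise 3). In 8 of the 9 panels every 1.5 h array lies above every 0 h array (16.3% of all probes show this), and Fosl1 is well above background at 12 h but at neither earlier time.

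At 1.5 h, 8 of the 9 genes had higher signals than at 0 h on every array, and Atf3 rose 15.4-fold. Without the 24 h replicate 2 array, Atf3, Fos, Maff, Junb, Jun and Fosb all passed the threshold, by 15.4-fold for Atf3, 9.16-fold for Fos and 2.75-fold to 6.04-fold for the other 4. Jund and Fosl2 were higher on every array but did not pass, and Fosl1 was not above background at either time. With 12 arrays 1 of 9 members rose, against 0.0225% of all probes, and with 11 arrays 6 of 9 rose, against 0.484% (limma, Benjamini-Hochberg adjusted p under 0.05 over all probes). The complete separation of the groups, seen in 8 of 9 members, was seen in the same direction for 16.3% of all probes. The members' median log2 fold change was 1.95, where all probes had 0.16 and coding probes 0.07. In bulk tissue, fewer cells of a type and less RNA per cell cannot be told apart.

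Atf3 showed the largest change of the 9 at 1.5 h. Its log2 signals were -0.65, -0.34 and 0.27 at 0 h, 3.68, 3.70 and 3.75 at 1.5 h, 1.13, 1.70 and 1.25 at 12 h, and -0.45, 0.74 and 1.24 at 24 h, in the order of replicates 1 to 3. The 3 arrays at 1.5 h were nearly equal and stood far above all others, and the 12 h arrays lay between them and the 0 h arrays. At 24 h the replicates spread over the 0 h and 12 h ranges.

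The rise of Atf3 at 1.5 h against 0 h was 3.95 ± 0.41 on the log2 scale (SE; limma adjusted p = 0.0092 with 12 arrays and 0.00926 with 11). At 12 h Atf3 had fallen 5.08-fold against 1.5 h (log2 -2.35 ± 0.41, adjusted p = 0.00569, and 0.00226 with 11 arrays), and this call was kept under all 23 alternative settings. It was still 3.03-fold higher at 12 h than at 0 h (log2 1.60 ± 0.41, adjusted p = 0.025, and 0.00916 with 11 arrays). The order of means was thus 1.5 h, 12 h, 24 h and 0 h, in which 24 h and 12 h (adjusted p = 0.142) and 24 h and 0 h (adjusted p = 0.329) did not differ beyond their spread. The 1.5 h call was lost when any single 0 h array (adjusted p = 0.0738, 0.077 and 0.058 without replicates 1, 2 and 3), 1.5 h replicate 1 (0.0527) or 1.5 h replicate 3 (0.0904) was left out, while the log2 fold change stayed between 3.61 and 4.20 over all settings. The 12 h call against 0 h was lost without 0 h replicate 1 or 2 (adjusted p = 0.104 and 0.0835), without any 12 h array (0.0587, 0.0891 and 0.0585 without replicates 1, 2 and 3) and after normexp background correction (0.21).

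Of the Fos family, Fos and Fosb followed one course and Fosl1 another. Fos, the founding member and a partner of Jun proteins, had log2 signals of -1.42, -2.77 and -1.01 at 0 h, 1.27, 1.88 and 1.24 at 1.5 h, -0.56, 0.46 and -0.99 at 12 h, and -1.92, 0.40 and -1.61 at 24 h. The 1.5 h arrays were highest, and the replicate at 24 h that stood above the other 2 was replicate 2. The rise at 1.5 h against 0 h was 9.16-fold (log2 3.19 ± 0.65, limma adjusted p = 0.24 with 12 arrays, and SE 0.47, adjusted p = 0.024 with 11). Against 1.5 h, Fos was 3.54-fold lower at 12 h (log2 -1.82 ± 0.65, adjusted p = 0.126, and 0.0207 with 11 arrays). At 12 h Fos remained 2.59-fold above 0 h (adjusted p = 0.17, and 0.0349 with 11 arrays). Without 24 h replicate 2 the 24 h mean, -1.77, and the 0 h mean, -1.73, were next to each other in order and did not differ beyond their spread (adjusted p = 0.974).

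Fosb, whose shorter splice form is known as a long-lived variant in neurons, had closely agreeing replicates. Its log2 signals were -0.85, -0.93 and -1.15 at 0 h, 0.47, 0.57 and 0.41 at 1.5 h, -0.46, -0.35 and -0.77 at 12 h, and -1.36, -4.06 and -1.17 at 24 h. Leaving aside the value of -4.06 on 24 h replicate 2, the SD of a time point was between 0.08 and 0.22. The rise at 1.5 h was 2.75-fold (log2 1.46 ± 0.61, limma adjusted p = 0.768 with 12 arrays, and SE 0.18, adjusted p = 0.0154 with 11). In the 11 arrays Fosb fell 2.01-fold by 12 h against 1.5 h (log2 -1.01, adjusted p = 0.00285) and a further 1.66-fold at 24 h against 12 h (log2 -0.73, adjusted p = 0.0339). With 12 arrays the same comparisons gave adjusted p = 0.448 and 0.0792. The means ran in the order 1.5 h, 12 h, 0 h and 24 h, where 12 h and 0 h (adjusted p = 0.0565 with 11 arrays) and 0 h and 24 h (adjusted p = 0.347) did not differ beyond the threshold. The 24 h and 0 h means stood in the other order, by 0.06, with the scan as a block.

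Fosl2, which encodes FRA-2, a Fos relative without the activation domain of Fos, was 4.36-fold higher at 1.5 h than at 0 h but varied among the 1.5 h arrays. Its log2 signals were -1.43, -1.57 and -1.17 at 0 h, 1.48, -0.39 and 1.11 at 1.5 h, 0.41, -0.70 and 0.04 at 12 h, and -0.53, 1.11 and -0.54 at 24 h. Every later array lay above every 0 h array, and the 1.5, 12 and 24 h arrays overlapped one another. At 1.5 h against 0 h the log2 fold change was 2.12 ± 0.56 (limma adjusted p = 0.503, and 0.0657 with 11 arrays). At 12 h it was 1.301 ± 0.56 (adjusted p = 0.139), which passed with 11 arrays (SE 0.44, adjusted p = 0.0336). At 24 h it was 1.40 ± 0.56 (adjusted p = 0.183), and 0.85 with 11 arrays (SE 0.49, adjusted p = 0.263). The 12 h and 1.5 h levels did not differ beyond their spread (adjusted p = 0.541, and 0.233 with 11 arrays).

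Fosl1, which encodes FRA-1 and is itself a textbook AP-1 target, was the one member that appeared late. Its signals were not well above background on any array at 0 h (-6.51, -7.24 and -6.89) or at 1.5 h (-6.79, -8.33 and -6.22), so those times have no order and no fold between them. At 12 h all 3 arrays were well above background (-3.83, -4.39 and -3.78), and at 24 h replicate 2 was (-3.98) while replicates 1 and 3 were not (-5.03 and -4.94). The 24 h level that passed the background call therefore rests on the array that stands apart.

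Raising each dim signal to the lowest one called well above background on its array, Fosl1 was at least 1.84-fold higher at 12 h than at 0 h. Such bounds were not tested, and the p-values given with them are for the measured signals. The measured means of Fosl1 were -4.003 at 12 h and -6.88 at 0 h (limma adjusted p = 0.00403, and 0.00109 with 11 arrays). Since its probe entered the fit through the 12 h arrays, these p-values are no independent support. Against 1.5 h, it was at least 3.17-fold higher at 12 h. The measured means were -4.003 at 12 h and -7.11 at 1.5 h (limma adjusted p = 0.00388, and 0.00112 with 11 arrays). For 24 h against 0 h the means were -4.65 and -6.88 (adjusted p = 0.0303 with 12 arrays) and the bound was 1.17-fold, with 1 of the 3 arrays at 24 h above background. Without that array both groups lay below background and no fold is given. After normexp background correction the log2 difference at 24 h was -0.44 and thus in the other direction. The 24 h call was lost without any single 0 h array (adjusted p = 0.0831, 0.126 and 0.0866 without replicates 1, 2 and 3), without 12 h replicate 1 (0.0501) and without 24 h replicate 3 (0.054). Normexp also ended the 12 h calls against 0 h (adjusted p = 0.705) and against 1.5 h (0.472), although both differences remained positive. The authors' deposited log2 table was not tested for Fosl1, whose probe it does not list.

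Of the Jun family, Jun was high at 1.5 h alone, Junb was high at all 3 later times, and Jund differed least of the 3 at 1.5 h. Jun, the partner common to Fos proteins and ATF3, had log2 signals of 0.74, 0.89 and 1.40 at 0 h, 3.56, 2.66 and 2.52 at 1.5 h, 0.68, 1.096 and 0.50 at 12 h, and -0.41, 2.08 and -0.24 at 24 h. The 0 h and 12 h arrays overlapped, and 24 h replicates 1 and 3 were below all of them while replicate 2 was above. The rise at 1.5 h against 0 h was 3.74-fold (log2 1.90 ± 0.58, limma adjusted p = 0.64 with 12 arrays, and SE 0.30, adjusted p = 0.0298 with 11).

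By 12 h Jun had fallen 4.45-fold against 1.5 h (log2 -2.15 ± 0.58, limma adjusted p = 0.0452, and 0.000882 with 11 arrays). With 12 arrays this call was lost when any single 0 h, 1.5 h or 12 h array was left out, with adjusted p between 0.0668 and 0.178, after normexp (0.0845), without the filter on dim probes (0.0583) and with the replicate block (0.0711), and the log2 fold change ranged between -2.35 and -1.70. At 24 h without replicate 2, Jun was 2.53-fold lower than at 0 h (log2 -1.34 ± 0.34, adjusted p = 0.0239), whereas with all 12 arrays the difference was -0.54 ± 0.58 (adjusted p = 0.629). With the scan as a block that difference was 0.02 on the log2 scale and that of 12 h against 0 h was 0.85 (adjusted p = 0.265), so the place of 0 h in the order depends on the block. The means ran in the order 1.5 h, 0 h, 12 h and 24 h, of which 0 h and 12 h did not differ beyond their spread (adjusted p = 0.767, and 0.496 with 11 arrays).

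Junb, a Jun protein that activates transcription more weakly than Jun, stayed above its 0 h level at every later time. Fosl2 also lay above 0 h on every later array, but its 24 h difference passed in neither fit. The log2 signals of Junb were 2.91, 1.80 and 2.39 at 0 h, 4.63, 4.13 and 4.21 at 1.5 h, 5.02, 3.81 and 4.20 at 12 h, and 4.16, 6.67 and 3.55 at 24 h. All 9 later arrays were above all 0 h arrays, and the 1.5 h and 12 h arrays overlapped. Junb was 3.87-fold higher at 1.5 h than at 0 h (log2 1.95 ± 0.68, limma adjusted p = 0.683 with 12 arrays, and SE 0.36, adjusted p = 0.0492 with 11) and 3.94-fold higher at 12 h (1.98 ± 0.68, adjusted p = 0.0759, and 0.00231 with 11 arrays). At 24 h it was 2.80-fold above 0 h in the 11 arrays (log2 1.49 ± 0.40, adjusted p = 0.0323) and 5.37-fold with all 12 (2.43 ± 0.68, adjusted p = 0.0676). The 12 h and 1.5 h levels differed by 0.02 on the log2 scale (95% confidence interval -0.78 to 0.83 with 11 arrays, adjusted p = 0.973).

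Jund, the Jun protein known for steady expression in resting cells, differed least at 1.5 h among the 8 genes that were above background at 0 h. Its log2 signals were 4.70, 4.405 and 4.76 at 0 h, 5.77, 5.39 and 5.76 at 1.5 h, and 5.32, 4.99 and 5.51 at 12 h. At 24 h they were 4.94 and 4.63 on replicates 1 and 3, and the spot of replicate 2 carried an outlier mark and was dropped, so n = 2 there in both fits. All 1.5 h and 12 h arrays lay above all 0 h arrays, and the 24 h arrays overlapped those of 0 h. The difference was 2.03-fold at 1.5 h (log2 1.02 ± 0.25, limma adjusted p = 0.498, and 0.0606 with 11 arrays) and 1.57-fold at 12 h (0.65 ± 0.25, adjusted p = 0.114, and 0.0262 with 11 arrays). At 24 h it was 0.16 on the log2 scale, with an interval of -0.35 to 0.68 in the 11 arrays.

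Maff, a small Maf protein that pairs with other zipper proteins, had a short peak. Its log2 signals were -0.10, -0.78 and -0.08 at 0 h, 2.83, 1.64 and 2.36 at 1.5 h, -0.06, -0.59 and -0.12 at 12 h, and -2.26, 0.30 and -1.29 at 24 h. The 12 h arrays had returned to the 0 h range, and 24 h replicates 1 and 3 lay below it. The rise at 1.5 h against 0 h was 6.04-fold (log2 2.59 ± 0.56, limma adjusted p = 0.296 with 12 arrays, and SE 0.36, adjusted p = 0.018 with 11).

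At 12 h Maff had fallen 5.79-fold against 1.5 h (log2 -2.53 ± 0.56, limma adjusted p = 0.019, and 0.00094 with 11 arrays). In the 12-array fit this call was lost without 1.5 h replicate 1 or 3 or any 12 h array, with adjusted p between 0.0567 and 0.0854. At 24 h, in the 11 arrays, Maff was 2.87-fold lower than at 12 h (log2 -1.52 ± 0.40, adjusted p = 0.0318) and 2.75-fold lower than at 0 h (-1.46 ± 0.40, adjusted p = 0.0333). With all 12 arrays these differences were -0.83 ± 0.56 (adjusted p = 0.266) and -0.77 ± 0.56 (adjusted p = 0.467). The 12 h and 0 h levels differed by 0.06 on the log2 scale, with an interval of -0.73 to 0.86 in the 11 arrays.

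**Figure D2:**
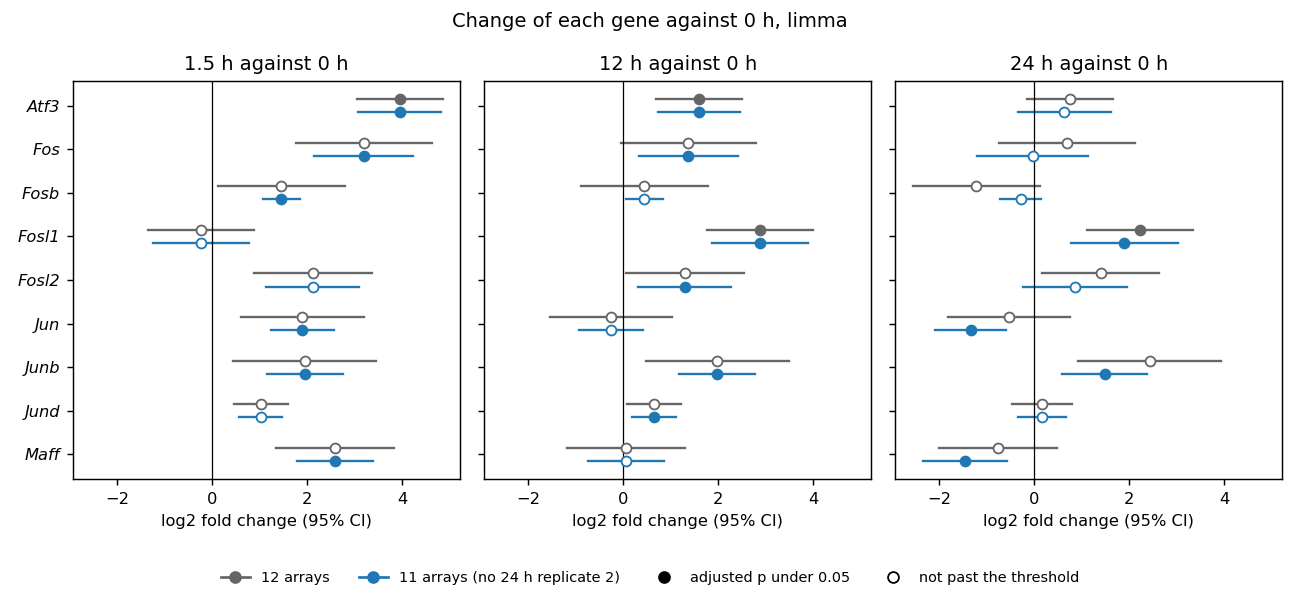
Log2 fold change of each gene (rows) at 1.5, 12 and 24 h against 0 h (x axis, bars are 95% confidence intervals) in the fits to 12 arrays (grey) and to 11 arrays (blue). Filled points passed an adjusted p of 0.05: at 1.5 h Atf3 with 12 arrays (0.0225% of all probes rose) and 6 genes with 11 (0.484%). At 12 h these were Fosl1 and Atf3 with 12 arrays (6.69% of all probes rose) and 6 genes with 11 (32.1%). Fosl1, counted at 12 h in both fits, met the filter through the 12 h arrays. At 1.5 and 12 h the points are the same in both fits, since only a 24 h array was left out, and the bars are shorter without it.

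Across the family, the later comparisons stand against a much larger background than 1.5 h does. At 12 h against 0 h, Atf3 rose among the 8 members other than Fosl1 with 12 arrays, where 6.69% of all probes did, and 5 of the 8 rose with 11 arrays, where 32.1% did. At 12 h, 6 of these 8 had all arrays above those of 0 h, as did 40.2% of all probes. They had a median of 0.98 on the log2 scale, where all probes had 0.41. At 24 h against 0 h, limma called 0 of these 8 with 12 arrays, where 2.73% of probes rose and 2.68% fell. With 11 arrays Junb rose (10.3% of probes did) and Jun and Maff fell (6.67%).

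Between 1.5 h and 12 h the members mostly fell. Atf3, Maff and Jun fell and Fosl1 rose with 12 arrays, and Fos and Fosb also fell with 11. Of all probes, 5.04% fell and 3.32% rose with 12 arrays, and 20.2% changed in either direction with 11. The members' median was -1.01 on the log2 scale (-1.42 without Fosl1), against 0.15 for all probes. Between 12 h and 24 h, limma called 0 of 9 members with 12 arrays, against 11.8% of probes. At an unadjusted p under 0.05 it called 1 of 9, against 39.9% of probes. Array quality weights called 4 of 9, but more of all probes passed with these weights too. The share of all probes that passed with them was just below the 39.9% at unadjusted p. The share of 11.8% is therefore not the background for those 4. With 11 arrays 2 fell, Maff and Fosb, against 7.12%. The F test for a difference from 0 h at any time passed with 12 arrays for Atf3, Maff, Fos, Jun and Fosb (16% of probes). With 11 arrays it passed for all 8 members other than Fosl1 (43.8% of probes). Fosl1 also passed in both fits and rose between 1.5 h and 12 h. Its probe entered the fit through the 12 h arrays, so these calls are no independent support.

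The arrays were read in 4 scans that did not hold all time points. Scan 1 held the 3 arrays at 0 h with 1.5 h replicate 1, scan 2 held 1.5 h replicates 2 and 3 with 12 h replicates 1 and 2, and scan 3 held 12 h replicate 3 with 24 h replicates 1 and 3. Within scan 1, where 1 array at 1.5 h met 3 at 0 h, the log2 difference was 3.91 for Atf3, 3.15 for Maff, 3.00 for Fos, 2.87 for Fosl2, 2.55 for Jun, 2.26 for Junb, 1.44 for Fosb and 1.15 for Jund. For these 8 genes every 1.5 h array lay above every 0 h array, so the direction within the scan was fixed and adds no separate support. With the scan as a fixed block, Jun passed at 1.5 h (adjusted p = 0.0472) and Atf3 did not (log2 3.91 ± 0.61, adjusted p = 0.0853).

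Within scan 2, with 2 arrays at 12 h and 2 at 1.5 h, the log2 difference was -2.31 for Atf3, -2.32 for Maff, -1.70 for Jun, -1.61 for Fos, -0.89 for Fosb and 3.16 for Fosl1. For these genes all 12 h arrays lay on the same side of all 1.5 h arrays. Their direction within the scan was thus fixed and adds no separate support. The remaining members, whose groups overlapped, differed by -0.51 (Fosl2), -0.42 (Jund) and 0.25 (Junb). With the scan as a block, Fosb, Jun, Maff, Atf3 and Fosl1 passed in this comparison (adjusted p between 0.00527 and 0.0235). Within scan 3, with 2 arrays at 24 h and 1 at 12 h, all 9 differences were negative, ranging between -1.66 for Maff and -0.35 for Junb. For Fos, Fosb, Fosl1, Jun, Jund and Maff this direction was also fixed, since these 24 h arrays lay below every 12 h array. No scan held arrays at 12 h or 24 h together with 0 h, so these comparisons have no value within a scan. Under the scan block neither Fosl1 (adjusted p = 0.089) nor Atf3 (0.304) passed at 12 h against 0 h.

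**Figure D3:**
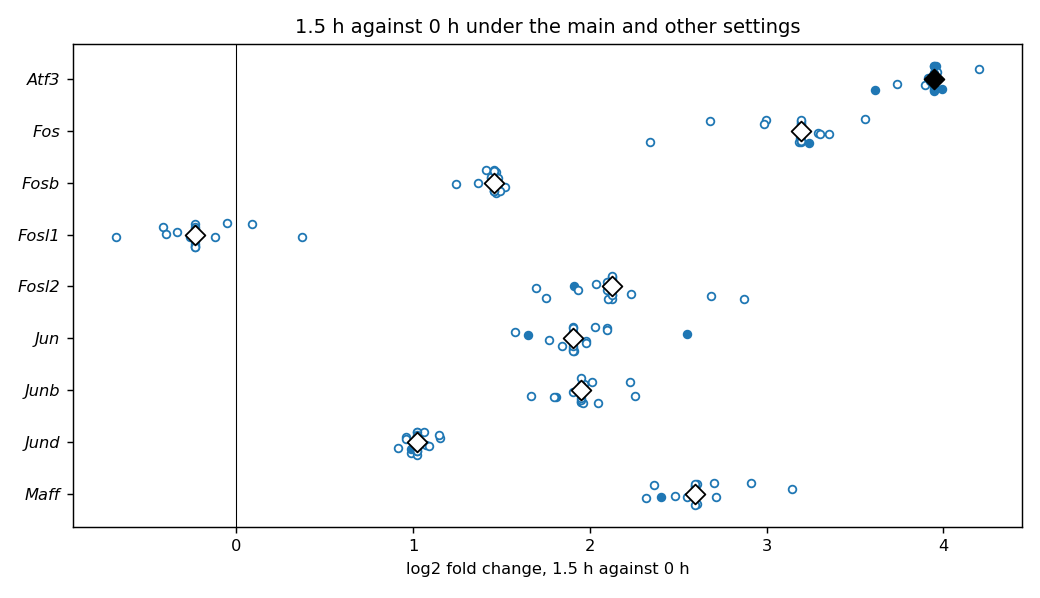
Log2 fold change at 1.5 h against 0 h (x axis) of each gene (rows) in the main 12-array fit (diamonds) and under the alternative settings (circles), filled where the adjusted p was under 0.05. Circles are spread vertically at random for legibility. The 8 genes other than Fosl1 were above 0 under every setting, with Atf3 between 3.61 and 4.20 and past the threshold in 15 of 23 alternatives.

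Neutrophil markers rose over the same times. The summed signal of 9 neutrophil markers kept of 10, on a linear scale with the array's 75th percentile as 1, was 1.72 to 2.33 at 0 h, 8.26 to 11.4 at 1.5 h, 31.6 to 40.5 at 12 h and 27.1 to 40.0 at 24 h. The groups at 0 h, 1.5 h and the later times did not overlap. Of the 9 markers, 2 rose by 1.5 h, 6 by 12 h and 5 by 24 h relative to 0 h (4, 7 and 5 with 11 arrays), where 0.0225%, 6.69% and 2.73% of all probes rose (0.484%, 32.1% and 10.3% with 11). S100a8, a subunit of the neutrophil protein calprotectin, rose 7.94-fold at 1.5 h (adjusted p = 0.0086, and 0.00372 with 11 arrays), and Ngp, a granule protein gene, was not above background at 0 h.

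The summed signal of 9 macrophage markers kept of 10 was 18.04 to 33.6 at 0 h, 22.4 to 41.5 at 1.5 h, 19.4 to 35.5 at 12 h and 34.9 to 60.3 at 24 h. No macrophage marker passed at 1.5 h against 0 h, and at 12 h 2 rose (Marco and Itgam) and 2 fell (Csf1r and Vsig4), or 2 and 5 with 11 arrays. Endothelial marker sums were 26.6 to 34.5 at 1.5 h and 30.6 to 33.2 at 0 h, and stellate cell marker sums were 14.5 to 21.7 at 1.5 h and 16.5 to 21.5 at 0 h. Hepatocyte marker sums (12 genes) were 1820.1 to 1903.5 at 0 h, 2002.2 to 2921.8 at 1.5 h, 2126.5 to 3135.4 at 12 h and 889.6 to 1867.7 at 24 h. None of 8 endothelial, 8 stellate cell, 5 bile duct or 6 lymphocyte markers measured passed at 1.5 h with either 12 or 11 arrays (limma). Whether these cells contributed to the AP-1 and ATF3 signals was not tested.

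Genes that act around AP-1 were examined in lists for their partners, upstream kinases, promoter-bound factors, decay and targets. Their counts stand against an array on which, at 12 h against 0 h, 6.69% of all probes rose and 8.48% fell with 12 arrays and 32.1% rose and 16.8% fell with 11. At 24 h, 2.73% rose and 2.68% fell with 12 arrays and 10.3% and 6.67% with 11. Among 27 measured basic leucine zipper relatives, none passed at 1.5 h with 12 arrays and 1 with 11, and the list median was -0.29. That gene was Nfil3, a repressor of the PAR zipper factors' sites, with log2 signals of 3.11, 2.01 and 2.70 at 1.5 h, against -0.01, 0.33 and -0.15 at 0 h. Its 1.5 h arrays were all far above the 0 h arrays, a 5.84-fold difference (log2 2.55 ± 0.40, limma adjusted p = 0.109, and 0.0207 with 11 arrays). JDP2, a direct dimer partner and repressor of Jun, is encoded by Jdp2, which differed by 0.50 ± 0.25 at 1.5 h (adjusted p = 0.793, and 0.155 with 11 arrays).

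At 12 h against 0 h, 4 of the 27 zipper relatives rose and 4 fell (6 and 5 with 11 arrays, when 32.1% of all probes rose). The clock output factor gene Dbp fell 19.6-fold (log2 -4.29 ± 0.42, limma adjusted p = 0.000212, and 5.42e-06 with 11 arrays), and the small Maf gene Mafg fell 3.21-fold (-1.68 ± 0.29, adjusted p = 0.00362, and 0.000239 with 11 arrays). Nfil3 rose 3.81-fold (1.93 ± 0.40, adjusted p = 0.0109, and 0.00276 with 11 arrays). At 24 h 3 rose and 2 fell (4 and 3 with 11 arrays), among them Creb3l3, a hepatocyte factor of the endoplasmic reticulum, which rose 3.36-fold (1.75 ± 0.31, adjusted p = 0.0139, and 0.00333 with 11 arrays, its spot on 24 h replicate 2 being dropped in both).

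None of 23 kinases upstream of AP-1 passed at 1.5 h with 12 or 11 arrays (limma), when the list median was 0.01. At 12 h against 0 h 3 rose and 6 fell (6 and 9 with 11 arrays, when 32.1% of all probes rose and 16.8% fell). Rps6ka3, which encodes the kinase RSK2 of the ERK pathway, rose 4.82-fold (log2 2.27 ± 0.36, adjusted p = 0.00241, and 0.00032 with 11 arrays), and Map3k8, an activator of the ERK and JNK pathways, rose 3.48-fold (1.80 ± 0.34, adjusted p = 0.00566, and 0.00191 with 11 arrays). Rps6ka1, which encodes RSK1, fell 3.57-fold (-1.84 ± 0.30, adjusted p = 0.00257, and 0.000563 with 11 arrays). Map2k6, which activates p38, also fell (adjusted p = 0.00706, and 6.8e-05 with 11 arrays), to a signal not well above background on 12 h replicates 1 and 3, so no fold is given. Kinase activity was not measured.

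Of 10 measured factors that act on the promoters of AP-1 genes, none passed at 1.5 h with 12 or 11 arrays (limma). Stat3, the mediator of IL-6 signals, had log2 signals of 2.07, 1.89 and 1.84 at 0 h, 2.22, 1.62 and 1.91 at 1.5 h, and 3.79, 3.01 and 3.61 at 12 h. The 1.5 h arrays overlapped those of 0 h and all 12 h arrays lay above both, a 2.90-fold rise at 12 h against 0 h (log2 1.54 ± 0.27, adjusted p = 0.00427, and 0.00105 with 11 arrays). Elk3, a ternary complex factor that pairs with SRF, fell 2.68-fold at 12 h (-1.42 ± 0.40, adjusted p = 0.0352, and 0.0126 with 11 arrays).

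Of 10 genes for decay of AP-1 messages or turnover of the proteins, none passed at 1.5 h with 12 or 11 arrays. Zfp36, whose product tristetraprolin binds AU-rich elements such as those of Fos mRNA, differed by 0.77 ± 0.32 at 1.5 h against 0 h (limma adjusted p = 0.766, and 0.145 with 11 arrays). It fell 2.23-fold at 12 h against 1.5 h (log2 -1.16 ± 0.32, adjusted p = 0.0474, and 0.0104 with 11 arrays). Itch, a ubiquitin ligase for Jun proteins, fell 1.60-fold at 12 h against 0 h with 11 arrays (adjusted p = 0.00977).

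More of the genes known as AP-1 or ATF3 targets passed at 12 and 24 h than at 1.5 h, as did more of all probes. Of 29 measured, 1 rose at 1.5 h (3 with 11 arrays), 10 rose and 2 fell at 12 h (17 and 3 with 11 arrays), and 10 rose and 1 fell at 24 h (13 and 2 with 11 arrays), with list medians of 0.31, 0.76 and 0.69 on the log2 scale. Mt2, a metallothionein that binds zinc, had log2 signals of 1.50, 2.95 and 1.44 at 0 h, 7.16, 6.05 and 7.52 at 1.5 h, and 9.52, 9.20 and 7.94 at 12 h. Its groups did not overlap, and it rose 30.8-fold at 1.5 h (log2 4.95 ± 0.59, limma adjusted p = 0.0289, and 0.0126 with 11 arrays) and 121-fold at 12 h (6.92 ± 0.59, adjusted p = 0.000115, and 2.64e-05 with 11 arrays) against 0 h.

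Timp1, an inhibitor of matrix metalloproteinases, rose 15.7-fold at 12 h (log2 3.98 ± 0.35, limma adjusted p = 0.000123, and 3.61e-06 with 11 arrays) and 21.3-fold at 24 h (4.42 ± 0.35, adjusted p = 0.00018, and 16.1-fold, 3.74e-05 with 11 arrays). Cxcl1, a chemokine for neutrophils, rose 42.8-fold at 12 h (5.42 ± 0.50, adjusted p = 0.000161, and 8.16e-06 with 11 arrays). Mmp3, a matrix metalloproteinase, was not above background at 0 h. It was at least 5.34-fold higher at 24 h, or at least 3.35-fold with 11 arrays. Its measured means with 12 arrays were -2.46 at 24 h and -6.95 at 0 h. The limma adjusted p, 0.00155, and 0.000424 with 11 arrays, is for the measured difference and not for these bounds. Hbegf, an EGF receptor ligand, was 1.90-fold higher at 1.5 h (log2 0.92, adjusted p = 0.589, and 0.0405 with 11 arrays). These genes have many other regulators, and which factor acted on them was not measured.

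**Figure D4:**
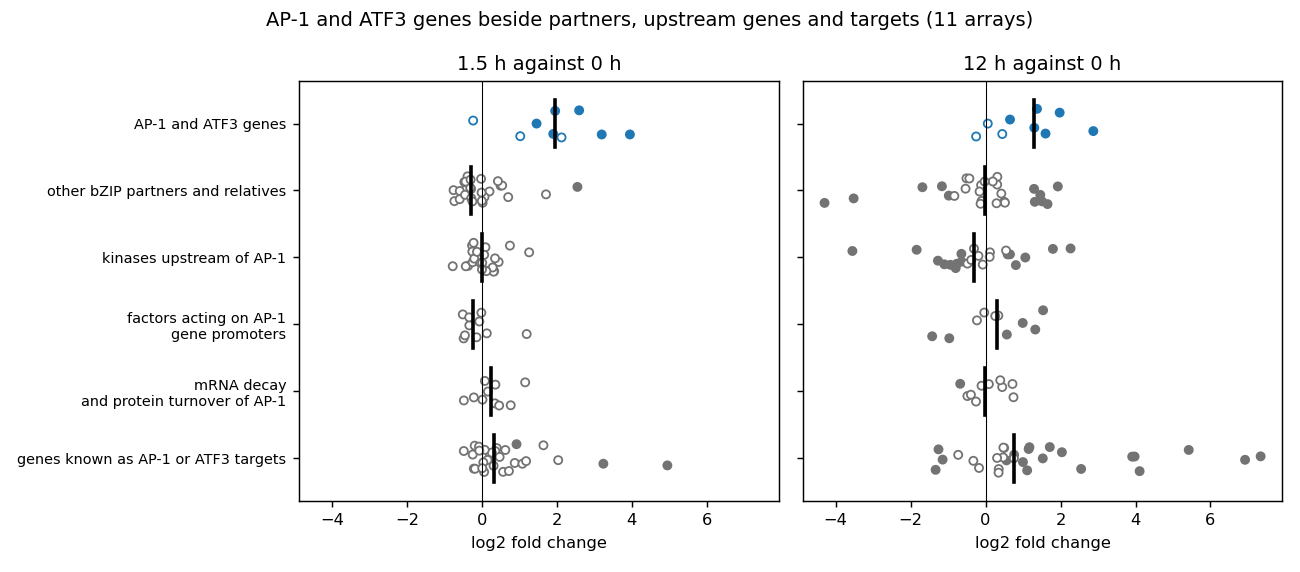
Log2 fold change (x axis) of every measured gene at 1.5 h (left) and 12 h (right) against 0 h in the 11-array fit, with the AP-1 and ATF3 genes in blue above their partners, upstream genes and targets. Filled points passed an adjusted p of 0.05 and black bars are medians. At 1.5 h the AP-1 and ATF3 median is 1.95 and the medians of the other lists lie between -0.29 and 0.31. At 12 h the AP-1 and ATF3 median is 1.301 and that of the targets 0.76. Without Fosl1, whose probe met the filter through the 12 h arrays, the 12 h median of the AP-1 and ATF3 genes is 0.98.

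The genes whose profile over the arrays was most like a member's were found by Pearson correlation among 16687 other named genes. The points share arrays and scaling, and the 24 h replicate 2 array weighs on them, so r is given over 12 and then 11 arrays as a description. For Maff these were Myc (0.961 and 0.963), Nr4a1 (0.947 and 0.961) and Sik1 (0.940 and 0.941). For Jun they were Gdf15 (0.922 and 0.925), Cry2 (0.913 and 0.914) and Sik1 (0.905 and 0.923). Maff and Jun therefore had Sik1, a salt-inducible kinase gene, in common.

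For Atf3 the nearest were Cpeb2 (0.919 and 0.918), Gtse1 (0.863 in both) and Atp10d (0.858 and 0.859), and for Fos they were Slc25a25 (0.862 and 0.865), Rgs2 (0.840 and 0.847) and Slc12a3 (0.827 and 0.869). Fosl2 was nearest to Apold1 (0.923 and 0.965), Ell2 (0.907 and 0.926) and Il1a (0.890 and 0.880). Jund, over the 11 arrays that measured it, was nearest to Klf4 (0.922), Apold1 (0.920) and the zipper gene Jdp2 (0.908). Apold1 thus stood near both Fosl2 and Jund.

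Fosl1 was nearest to C5ar1 (0.961 and 0.956), Cldnd1 (0.961 and 0.960) and Rnf144a (0.952 and 0.968), with most of its own signals below the background call. C5ar1 encodes the receptor for complement C5a, a gene of neutrophils and macrophages. For Junb the genes were Gm4907 (0.935 and 0.892), Csrnp1 (0.916 and 0.855) and Arl4a (0.907 and 0.828). For Fosb they were Slc14a1 (0.975 and 0.918), Olfr695 (0.973 and 0.906) and Spaca9 (0.972 and 0.909). The correlations of Junb and Fosb were lower without the 24 h replicate 2 array, on which both had their extreme value.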

How the data were processed

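RNA of 12 mouse livers (4 time points, 3 arrays each) was measured on 1-colour Agilent arrays. The deposited intensity of each spot is the processed signal of Agilent's scanner software, Feature Extraction 10.5.1.1 per the file headers, which subtracts background and detrends within an array. The authors also deposited a log2 table of 20271 probes, whose normalization is not given in the sources used here. The number of arrays limits the precision.

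Of 39448 spots, controls and outlier spots were dropped and the spots of a probe averaged. Values were log2 processed signal minus the array's 75th percentile. Probes well above background on at least 3 arrays were kept (31168). Symbols and coordinates came from RefSeq (GRCm38.p6). limma 3.58.1 in R 4.3.3 (lmFit, eBayes) fitted 1 mean per time point to all 12 arrays, with two-sided tests and Benjamini-Hochberg adjustment over all kept probes at 0.05. It was checked on simulated data. p-values measure the spread between these arrays. Values after ± in the text are the SE of the log2 fold change.

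The members and gene lists were chosen with earlier results of these data known. All members are named, and of each other list up to 4 genes past the threshold per comparison by adjusted p, or the one with the smallest, and the 3 most correlated genes per member. Jdp2 at 1.5 h and Mmp3 and Hbegf in the second fit were added, and which of these genes to print was chosen, after values were seen. Lists of relatives held 28 genes, kinases 23, promoter factors 13, decay 10 and targets 30. Scan times in the headers served as the slide. Same-numbered replicates did not deviate together (18 pairs, r between -0.42 and 0.41, median -0.04), so numbers were not taken as pairs. Alternatives were normexp (offset 50), quantile normalization, the authors' table, 2 filters, robust moderation, array weights, probe means, the groups alone, replicate and scan blocks, and leaving out each array.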

Additional observations from a re-analysis of the deposited data

How the results depend on the processing

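With 12 arrays the counts of member genes called were 1 for 1.5 h against 0 h, 2 for 12 h against 0 h, 1 for 24 h against 0 h, 4 for 12 h against 1.5 h, 0 for 24 h against 12 h and 6 in the F test. At 1.5 h against 0 h, array quality weights gave 8, the groups alone 0 and the replicate block 0, and leaving out single arrays 0 to 6. At 12 h against 0 h, normexp gave 0, the authors' table and the filter for all 12 arrays 1 each (both tested 7 members, without Fosl1 and Jund), array weights 7, the groups alone 5, the scan block 0, and single arrays left out 1 to 6. At 24 h against 0 h, normexp, the authors' table, the groups alone, the replicate block and the scan block gave 0, robust moderation 2, array weights 4, and single arrays left out 0 to 4. For 12 h against 1.5 h, normexp gave 2 and single arrays left out 2 to 6. For 24 h against 12 h, quantile normalization and the authors' table gave 1, array weights 4, and single arrays left out 0 to 2. In the F test, normexp gave 2, the replicate block 3, and single arrays left out 3 to 9. The groups-alone setting has no F test. Fosl1 at 24 h against 0 h reversed to -0.44 under normexp, and the cause was not tested. The higher counts came mainly with a smaller weight or none for the 24 h replicate 2 array. With array weights, and without that array, more of all probes passed than in the main fit in every comparison and in the F test. With array weights at 1.5 h against 0 h, far more of all probes passed. For the groups alone at 12 h against 0 h, more of all probes also passed. A higher count of members under these settings therefore does not by itself set the members apart from the rest of the array. Of the single-gene values under alternatives, 913 kept their side of the threshold, among them 20 uncalled values that changed sign within the spread, 53 newly passed, 43 no longer passed, 5 uncalled values changed sign by more than the spread, and 1 called value reversed. Signal over background limits Fosl1 alone among the members.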
